A study of Homo sapiens with 3 samples.

Results

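The genes described here build cholesterol and fatty acids from acetyl-CoA or regulate that synthesis. They were taken as a fixed list of 31 symbols, chosen with earlier results of these data known. The list holds enzymes controlled by the sterol regulatory element-binding proteins (SREBPs), their regulators and 1 sterol carrier. All 31 were found among the 17448 genes of the deposited table. RNA was taken from H128, an established human small-cell lung cancer (SCLC) cell line, 48 h after transfection. The library labelled siCont received a control siRNA, and those labelled siERRG2 and siERRG3 each received an siRNA against ESRRG, the gene of the orphan nuclear receptor ERRγ. There was 1 library per condition, so no difference below has a replicate check and no p-value is given. The knockdown was transient and in 1 cell line. The labels also mention treatment with DN200434, an ERRγ antagonist, but no library title names it, and its effect was not analysed here.

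SREBPs are made as precursors in the membrane of the endoplasmic reticulum. SCAP carries them to the Golgi for cleavage when sterols are low, and the INSIG proteins hold SCAP back when sterols are high, so that the enzymes of the pathway usually rise and fall together. SREBP2, from SREBF2, acts mainly on sterol genes, and SREBP1, from SREBF1, mainly on fatty acid genes. ERRγ binds DNA on its own and is best known for genes of mitochondrial energy metabolism.

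Counts summed to between 19861937 and 20016780 per library. All 31 members passed the filter of at least 10 counts in at least 1 library, as did 14031 genes in all, and the members held between 260 and 17874 counts each. ESRRG itself had 806 counts in siCont, compared with 211 in siERRG2 and 230 in siERRG3, and its scaled ratio to siCont was 0.259 (95% interval 0.221 to 0.3015) and 0.281 (0.241 to 0.325). Here and below the interval of a ratio is exact binomial (Clopper-Pearson), covers counting error only, and compares libraries, not conditions. The neuroendocrine markers CHGA, CHGB, SYP, INSM1, SCG2 and SCG3 summed to 25615 counts in siCont against 20422 and 21753 in siERRG2 and siERRG3, and 0 of the 6 were at 0. INSM1, a transcription factor of neuroendocrine cells, had 10359 counts in siCont and 5279 in siERRG2, while CHGA, SCG2 and SCG3 had more counts there than in siCont. The 5 markers of leukocytes, fibroblasts and endothelium summed to 186 counts in siCont, compared with 278 in siERRG2 and 152 in siERRG3, and 0 of them were at 0 in every library. LUM, a fibroblast gene, had 83, 183 and 58 of these counts, and the remaining markers were each at 47 or fewer. The part of these markers in the results was not tested. In bulk RNA, fewer cells that use a gene and less RNA per cell cannot be told apart.

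The pathway was well expressed in H128 cells. The members together took 0.747% of all counts in siCont (95% Clopper-Pearson interval 0.744 to 0.751) against 0.714% (0.710 to 0.7175) and 0.6895% (0.686 to 0.693) in siERRG2 and siERRG3. These intervals cover counting error only, and members with many counts weigh most in the shares. In siCont, siERRG2 and siERRG3, SCD had 17874, 13116 and 17160 counts, FASN 16423, 17364 and 15915, and ACLY 15825, 15221 and 10859. Levels between genes were compared as FPKM, in which counts are divided by the length of the transcript and the size of the library. FDPS, which makes the farnesyl diphosphate from which sterols and isoprenoids branch, was highest, at 242 FPKM in siCont against 202 and 188 in siERRG2 and siERRG3. By the mean over libraries, FDFT1, the squalene synthase, came next, at between 166 and 173 FPKM, followed by ACLY, which supplies cytosolic acetyl-CoA, at between 124 and 181. The lowest were STARD4, a carrier of sterols between membranes, at 5.26, 4.95 and 7.57 FPKM in siCont, siERRG2 and siERRG3, and INSIG2, at 6.17, 7.78 and 5.00. INSIG1, the other retention protein of the same family, was at 97.4, 85.4 and 71.2 FPKM. SREBF2 was at between 62.6 and 72.4 FPKM and SREBF1 at between 23.1 and 26.7, so the 2 ranges did not overlap.

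The promoters of these genes share letters as well as a pathway. Promoters of 300 bases, from 250 before to 50 after the start, were found for 27 of the 31 members in RefSeq's table of GRCh38.p14, 37 promoters in all. On both strands, CCAAT, the box bound by NF-Y, a partner of SREBPs, was in 64.9% of the member promoters, in 34.5% of the 16056 promoters of genes that passed the count filter and in 34.6% of all 35116 promoters. GGGCGG, the GC box, was in 89.2%, 64.0% and 45.0%. The sterol regulatory element TCACNCCAC was in 1 member promoter, that of SREBF2, against 1.05% of promoters of genes that passed the filter and 1.13% of all. Its core CACNCCAC, which lies within the longer motif and was added after the others had been counted, was in 18.9%, 5.85% and 5.87%. The E-box CACGTG was in 13.5%, 9.19% and 7.26%. The ERR response element TNAAGGTCA was in 0 of the 37 member promoters, in 0.56% of promoters of genes that passed the filter and in 0.951% of all. At so low a share, 0 of 37 does not set the members apart. These are matches of letters, and not sites of binding.

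The 250 bases before the start are printed for 5 members that differed in their changes. CCAAT boxes on either strand (CCAAT or ATTGG) and the sterol regulatory element are in capitals. SREBF2 is shown for its sterol element, INSIG1 and INSIG2 as a pair of related regulators, and MSMO1 and LSS as the enzymes lowest against siCont in siERRG2 and in siERRG3. They lie at chr22:41832855-41833104 (plus strand), chr7:155297628-155297877 (plus), chr2:118088221-118088470 (plus, the first of 2 starts listed), chr4:165327419-165327668 (plus) and chr21:46228775-46229024 (minus) in GRCh38.p14.
SREBF2: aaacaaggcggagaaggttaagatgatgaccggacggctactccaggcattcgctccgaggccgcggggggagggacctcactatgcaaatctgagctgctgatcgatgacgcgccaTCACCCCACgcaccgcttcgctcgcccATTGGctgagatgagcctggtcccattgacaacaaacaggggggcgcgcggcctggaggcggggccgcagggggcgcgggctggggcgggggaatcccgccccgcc
INSIG1: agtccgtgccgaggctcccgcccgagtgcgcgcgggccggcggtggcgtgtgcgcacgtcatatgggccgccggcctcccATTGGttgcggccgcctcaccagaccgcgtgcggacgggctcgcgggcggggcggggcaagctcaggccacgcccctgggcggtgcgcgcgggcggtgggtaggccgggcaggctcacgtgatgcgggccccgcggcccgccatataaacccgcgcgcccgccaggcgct
INSIG2: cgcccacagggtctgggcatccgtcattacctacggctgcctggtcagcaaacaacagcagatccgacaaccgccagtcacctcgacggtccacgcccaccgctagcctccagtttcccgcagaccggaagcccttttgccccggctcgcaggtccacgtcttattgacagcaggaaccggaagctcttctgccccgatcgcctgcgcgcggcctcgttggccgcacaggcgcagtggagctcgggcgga
MSMO1: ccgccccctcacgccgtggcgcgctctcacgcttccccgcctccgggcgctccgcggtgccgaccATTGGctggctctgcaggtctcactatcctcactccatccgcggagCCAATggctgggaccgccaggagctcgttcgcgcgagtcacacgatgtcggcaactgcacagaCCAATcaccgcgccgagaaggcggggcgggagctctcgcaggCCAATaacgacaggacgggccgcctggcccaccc
LSS: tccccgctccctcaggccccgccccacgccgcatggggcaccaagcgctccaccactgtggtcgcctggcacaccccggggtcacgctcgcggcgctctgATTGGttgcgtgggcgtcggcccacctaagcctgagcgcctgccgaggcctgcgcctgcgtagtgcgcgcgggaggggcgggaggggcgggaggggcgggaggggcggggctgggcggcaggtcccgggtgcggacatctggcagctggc
MSMO1 held 4 CCAAT boxes in this stretch, SREBF2, INSIG1 and LSS held 1 each, and INSIG2 held 0.

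In neither ESRRG siRNA library did the pathway move as a block. A gene is called lower or higher here when it was at least 1.2-fold from siCont, the threshold of the study, which is 0.263 on the log2 scale. Fold changes were taken on log2 CPM, with libraries scaled by the TMM method of edgeR and a prior count of 2. In siERRG2, 2 of the 31 members were lower and 4 were higher, and 25 were within 1.2-fold. Of all genes tested, 19.2% were lower and 16.4% higher. Of the 8510 genes with a mean count at least as large as that of the lowest member, 12.4% were lower and 10.3% higher, against 6.45% and 12.9% of the members. The median log2 fold change was -0.03 over the members and 0.00 over all genes tested.

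In siERRG3, 8 members were lower and 5 higher. These are 25.8% and 16.1% of the members, against 25.1% and 23.2% of all genes tested and 22.9% and 16.8% of the genes of like depth. The median was -0.08 over the members and 0.00 over all genes tested. The median absolute log2 fold change of the members was 0.18 in siERRG2 and 0.23 in siERRG3, and over all genes tested it was 0.18 and 0.25. The shares of members in siERRG3 were near those of the genes of like depth. In siERRG2 the share lower, 6.45% from 2 members, was below the 12.4% of the genes of like depth, and the difference was not tested. Both comparisons share the siCont library. The intervals of the members past the threshold excluded 1 in all 6 cases of siERRG2 and all 13 of siERRG3. 0 members reached a 2-fold difference between any pair of libraries.

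**Figure D1:**
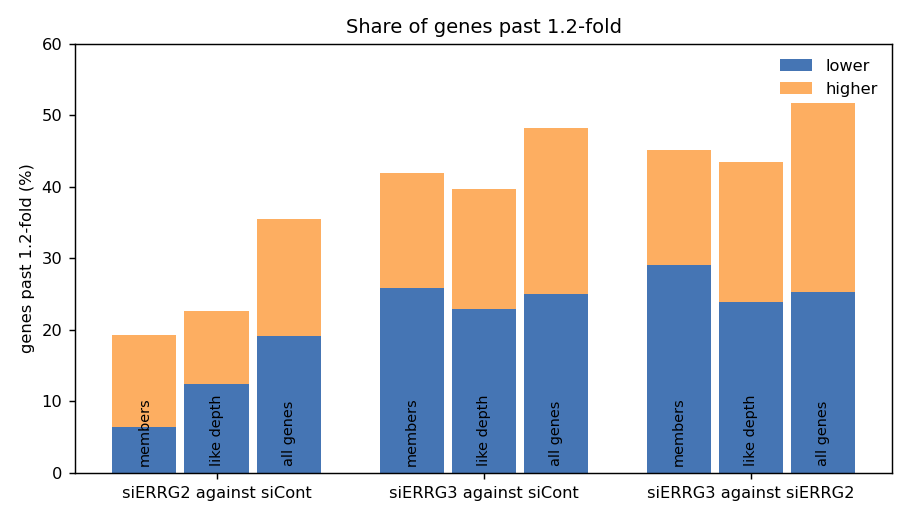
Share of genes, in percent, at least 1.2-fold lower (blue) or higher (orange), for the 31 members, the 8510 genes of like depth and all 14031 genes tested, in each comparison. In siERRG3 against siCont, 25.8% of members were lower and 16.1% higher, beside 22.9% and 16.8% of the genes of like depth.

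The first 7 enzymes lead from acetyl-CoA to farnesyl diphosphate. In siERRG2, 0 of the 7 were past 1.2-fold, and in siERRG3 3 were lower and 2 higher. Counts in this and the following groups, which are small, are to be read against all genes tested and the genes of like depth. Of all genes tested, 19.2% were lower and 16.4% higher in siERRG2, and 25.1% and 23.2% in siERRG3. Of the genes of like depth, 12.4% were lower and 10.3% higher in siERRG2, and 22.9% and 16.8% in siERRG3. ACAT2 (gene 39, chr6:159679081-159800120 in GRCh38, as the table gives it), the cytosolic thiolase that joins acetyl-CoA units, had 1712 counts in siCont, compared with 2009 in siERRG2 and 1224 in siERRG3. It was thus highest in siERRG2 and lowest in siERRG3, with ratios to siCont of 1.16 (1.09 to 1.24) and 0.703 (0.653 to 0.757). Its gene overlaps TCP1, a chaperonin subunit, by 615 bases in RefSeq, and its counts were not whole numbers. The deposited span of ACAT2 is wider than its RefSeq span, chr6:159762045-159779112, on which the shared bases were counted. TCP1 had 6599 counts in siCont, compared with 7914 in siERRG2 and 8237 in siERRG3. ACAT2 also shares 237 bases with SOD2, a mitochondrial superoxide dismutase, which had 1239, 1523 and 1216 counts. In siERRG3, the summed counts of ACAT2 gave a ratio of 1.12 with TCP1 and of 0.813 with SOD2. A shift of reads between these neighbours was not tested.

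HMGCS1, the synthase of HMG-CoA, had 9778, 8361 and 8722 counts (siCont, siERRG2, siERRG3). Both ESRRG siRNA libraries were below siCont, at ratios of 0.845 and 0.877, short of 1.2-fold. MVK, the mevalonate kinase, had 804, 888 and 1038 counts, with ratios of 1.09 (0.991 to 1.203) and 1.27 (1.16 to 1.39). MVK overlaps MMAB, a gene of cobalamin metabolism, by 233 bases in RefSeq. The deposited spans share far more, at chr12:109555902-109599346 for MVK and chr12:109513973-109597240 for MMAB. MMAB had 702, 671 and 515 counts, with the lowest value where MVK was highest. Together they gave a ratio of 1.01 in siERRG3. A shift of reads between MVK and MMAB was not tested.

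PMVK, the next kinase, had 1001, 931 and 1197 counts (siCont, siERRG2, siERRG3), and was within 1.2-fold of siCont in both. MVD, the mevalonate diphosphate decarboxylase, had 970, 1040 and 805 counts, and was lower in siERRG3 at a ratio of 0.816 (0.742 to 0.897). IDI1, the isomerase of isopentenyl diphosphate, had 2724, 3132 and 3360 counts. It was higher in siERRG3, at a ratio of 1.21 (1.15 to 1.28), and at 1.14 in siERRG2. IDI1 overlaps WDR37 by 320 bases in RefSeq, and WDR37 had 367, 486 and 416 counts. The summed counts of IDI1 and WDR37 gave a ratio of 1.201 in siERRG3. MVD and IDI1, which act 1 after the other in the pathway, were thus past the threshold in opposite directions in siERRG3. FDPS had 6155, 5230 and 4863 counts, with ratios of 0.840 (0.809 to 0.872) and 0.777 (0.748 to 0.807). FDPS was the highest of the members in siCont and stood below it in both ESRRG siRNA libraries, with the value of siERRG2 just short of 1.2-fold at a log2 fold change of -0.25.

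The 3 enzymes from farnesyl diphosphate to lanosterol differed among themselves in siERRG3. LSS (gene 4047, chr21:46188383-46228824), the lanosterol synthase, had 5346 counts in siCont, compared with 5029 in siERRG2 and 3355 in siERRG3. Against siCont this was a ratio of 0.930 (0.895 to 0.967) for siERRG2 and of 0.617 (0.591 to 0.644) for siERRG3, the lowest of any member in that library. FDFT1 had 7276, 7591 and 7487 counts, and its ratio held 1 within its interval in both. SQLE, the squalene epoxidase that stands between FDFT1 and LSS, had 4452, 4004 and 4537 counts, with ratios of 0.889 (0.852 to 0.928) and 1.002 (0.961 to 1.04). LSS alone of the 3 was past 1.2-fold.

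Of the 8 enzymes from lanosterol to cholesterol, 3 were higher and 1 lower in siERRG2, while 1 was higher and 1 lower in siERRG3. The group is small, and of all genes tested 16.4% were higher and 19.2% lower in siERRG2. In siERRG3 these shares were 23.2% and 25.1%. Of the genes of like depth, 10.3% were higher and 12.4% lower in siERRG2, and 16.8% and 22.9% in siERRG3. The median log2 fold change of this group was 0.22 in siERRG2, the highest of the 5 groups there, and 0.01 in siERRG3. DHCR7 (gene 1717, chr11:71434411-71448431), which performs the last reduction of the sterol B ring, had 5267 counts in siCont, compared with 6891 in siERRG2 and 5318 in siERRG3. The value in siERRG2 stood apart, at a ratio of 1.29 (1.25 to 1.34), and that in siERRG3 was 0.993 (0.956 to 1.03). NSDHL, a dehydrogenase in the removal of the C4 methyl groups, had 1495, 1931 and 1475 counts, again with siERRG2 apart, and ratios of 1.28 (1.19 to 1.37) and 0.970 (0.902 to 1.04). TM7SF2, a sterol reductase, had 702, 894 and 596 counts, with ratios of 1.26 (1.14 to 1.39) and 0.835 (0.747 to 0.932). TM7SF2 was above siCont in siERRG2 and below it in siERRG3, where the log2 fold change of -0.26 was just short of the threshold.

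MSMO1 (gene 6307, chr4:165327666-165343164), the oxidase that begins removal of the same C4 methyl groups, went the other way. It had 3951 counts in siCont, compared with 2693 in siERRG2 and 4554 in siERRG3, with ratios of 0.674 (0.641 to 0.708) and 1.13 (1.09 to 1.18). MSMO1 was the lowest member against siCont in siERRG2, in the library where NSDHL, its neighbour in the pathway, was higher. SC5D, a desaturase late in the pathway, had 2044, 2419 and 2784 counts, with ratios of 1.17 (1.10 to 1.24) and 1.34 (1.26 to 1.42). EBP, a sterol isomerase, had 3414, 3766 and 2860 counts and was lower in siERRG3, at 0.824 (0.784 to 0.866). CYP51A1, the lanosterol demethylase, and HSD17B7, a ketosteroid reductase, were within 1.2-fold of siCont in both libraries, with log2 fold changes between 0.01 and 0.23.

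**Figure D2:**
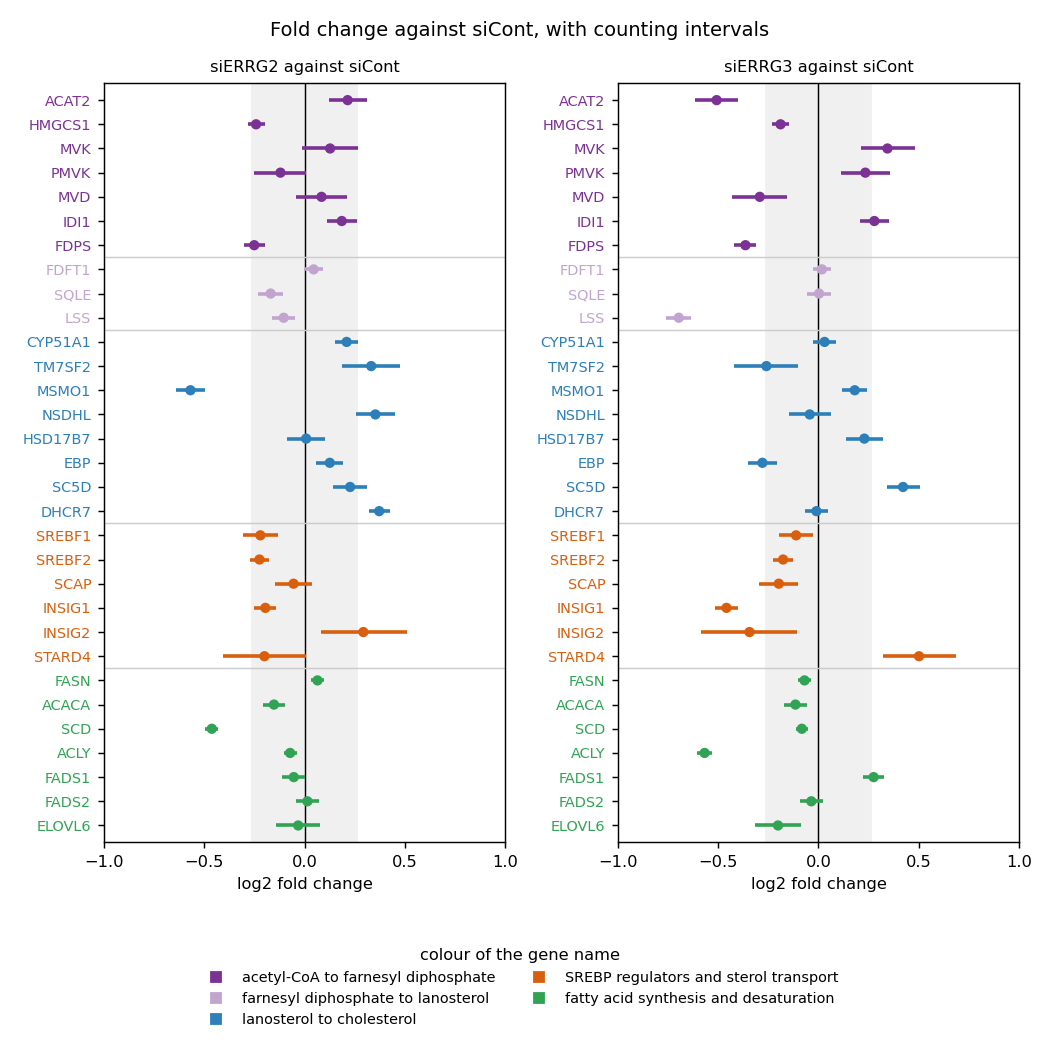
Log2 fold change of each member in siERRG2 (left) and siERRG3 (right) against siCont, with 95% exact binomial intervals that cover counting error, and changes within 1.2-fold shaded grey. MSMO1 and SCD stand lowest in siERRG2, LSS and ACLY stand lowest in siERRG3, and both panels share the siCont library.

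The regulators were close to siCont as transcripts, with the INSIG genes and STARD4 as exceptions. SREBF2 had 7467 counts in siCont, compared with 6460 in siERRG2 and 6719 in siERRG3. SREBF1 had 2330, 2022 and 2193. Both stood below siCont in both ESRRG siRNA libraries, by less than 1.2-fold, with ratios of 0.855 and 0.885 for SREBF2 and of 0.858 and 0.925 for SREBF1. SREBF1 overlaps RAI1 by 120 bases in RefSeq, and RAI1 had 1374, 1274 and 1378 counts. The deposited span of SREBF1, chr17:17334601-17869299, is wider than its RefSeq span, chr17:17811334-17836986, on which the shared bases were counted. The counts of SREBF1 were not whole numbers. SCAP had 1868, 1818 and 1656 counts, with ratios of 0.962 (0.901 to 1.03) and 0.872 (0.815 to 0.932).

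INSIG1 (gene 3638, chr7:155273995-155311819), itself a target of SREBPs, had 5872 counts in siCont, compared with 5185 in siERRG2 and 4345 in siERRG3. Its ratios to siCont were 0.873 (0.841 to 0.906) and 0.728 (0.700 to 0.757), with siERRG3 the lowest of the 3 libraries. INSIG2 (gene 51141, chr2:118046694-118173352) had 325, 403 and 260 counts. It was higher in siERRG2, at 1.23 (1.06 to 1.42), and lower in siERRG3, at 0.787 (0.666 to 0.929), the only member past 1.2-fold in opposite directions. INSIG2 had the lowest mean count of any member, 329.3, and so wide intervals. STARD4 had 415, 365 and 598 counts, with ratios of 0.870 (0.753 to 1.003) and 1.42 (1.25 to 1.61). STARD4 was highest in siERRG3 and the member furthest above siCont in that library.

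Among the 7 fatty acid genes, 1 was past 1.2-fold in siERRG2 and 2 in siERRG3. In siERRG2, 19.2% of all genes tested were lower and 16.4% higher, and in siERRG3 25.1% and 23.2%. For the genes of like depth, the shares were 12.4% and 10.3% in siERRG2, and 22.9% and 16.8% in siERRG3. SCD (gene 6319, chr10:100347015-100378343), which places the double bond of oleate, had 17874 counts in siCont, compared with 13116 in siERRG2 and 17160 in siERRG3. The siERRG2 library was thus apart from the other two, at a ratio of 0.725 (0.709 to 0.742), against 0.944 (0.924 to 0.964) in siERRG3. ACLY (gene 47, chr17:41865555-41930634) had 15825, 15221 and 10859 counts, and here siERRG3 was apart, at 0.675 (0.658 to 0.692), against 0.951 (0.9299 to 0.972) in siERRG2. FASN, the fatty acid synthase, had 16423, 17364 and 15915 counts, with ratios of 1.045 (1.02 to 1.07) and 0.953 (0.932 to 0.974). ACACA, whose product ACC1 commits acetyl-CoA to fatty acids, had 5236, 4763 and 4917.

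FADS1 and FADS2, neighbouring desaturases of polyunsaturated fatty acids, share 801 bases in RefSeq, and neither had whole counts. In the deposited spans, FADS2 (chr11:61798533-61867354) lies within FADS1 (chr11:61792960-61869420). FADS1 had 5070, 4939 and 6238 counts (siCont, siERRG2, siERRG3), and a ratio of 1.21 (1.17 to 1.26) in siERRG3. FADS2 had 4752, 4852 and 4714, and its ratio held 1 within the interval in both. The summed counts of FADS1 and FADS2 gave a ratio of 1.096 in siERRG3, which is within 1.2-fold. A shift of reads between FADS1 and FADS2 was not tested. ELOVL6, an elongase of saturated chains, had 1363, 1348 and 1205 counts. On FPKM its log2 fold change in siERRG3 was -0.09 in place of -0.20, and the reason for this shift was not tested.

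The ESRRG siRNA libraries were also compared directly, a ratio in which siCont takes no part. ESRRG differed little between them, at a ratio of siERRG3 to siERRG2 of 1.08 (0.895 to 1.31). Of the 31 members, 9 were at least 1.2-fold lower in siERRG3 and 5 higher, which is 29.0% and 16.1%. Of all genes tested, 25.3% were lower and 26.4% higher, and of the genes of like depth 23.9% and 19.6%. The median log2 fold change was -0.05 over the members and 0.01 over all genes tested.

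The members furthest apart were MSMO1, at 1.68-fold higher in siERRG3 (1.603 to 1.765), and ACAT2, at a ratio of 0.606 (0.564 to 0.651). STARD4 was higher in siERRG3 at 1.63 (1.43 to 1.86), and SCD at 1.30 (1.272 to 1.331). PMVK at 1.28 and FADS1 at 1.26 were the other members higher there. INSIG2 was lower at 0.642 (0.547 to 0.752). LSS was lower at 0.664 (0.635 to 0.693), and TM7SF2 at 0.663 (0.597 to 0.736). ACLY stood at 0.710, MVD at 0.770, DHCR7 at 0.768, NSDHL at 0.760 and EBP at 0.755. Of the 8 enzymes after lanosterol, 4 were thus lower and 1, MSMO1, was higher, beside 25.3% and 26.4% of all genes tested. For the genes of like depth, the shares were 23.9% and 19.6%. INSIG1 was at 0.834 (0.800 to 0.868), just inside the threshold.

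**Figure D3:**
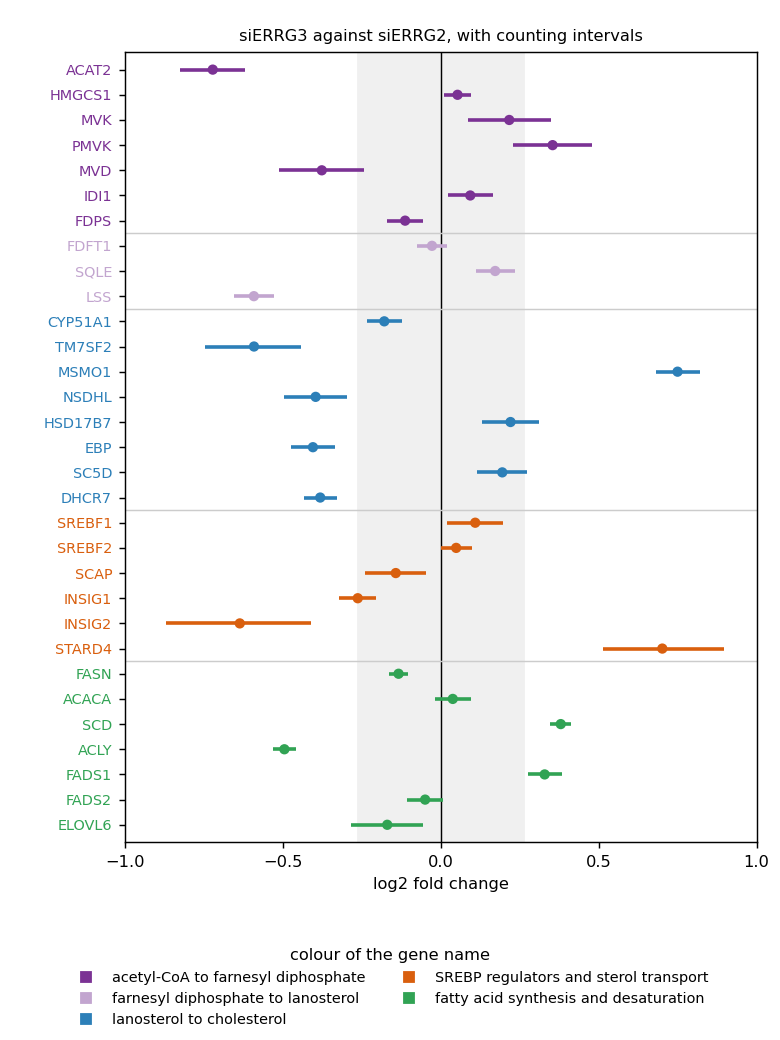
Log2 fold change of each member in siERRG3 against siERRG2, with 95% exact binomial intervals that cover counting error, and changes within 1.2-fold shaded grey. MSMO1 and STARD4 lie furthest to the right, ACAT2 and INSIG2 furthest to the left, and ESRRG, which is not plotted, had a ratio of 1.08.

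The CCAAT box was found on both sides of these differences. Of the members lower in siERRG3 than in siCont, 7 had a promoter in the table and 6 of them held a CCAAT box. Of the 5 members that were higher, 4 held it, and of the 15 members with a promoter that were within 1.2-fold, 10 did. MSMO1, lower in siERRG2, held 4 boxes, and NSDHL, higher in the same library, held 5, as did MVK, the most in any member promoter. Boxes were counted on each strand, and those of NSDHL at -113 and -110 from the start overlap within CCAATTGG. These are counts with no test.

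Genes around the pathway were described in the same way, and their counts are to be read against the 19.2% lower and 16.4% higher of all genes tested in siERRG2 and the 25.1% and 23.2% in siERRG3. The lists are short, and several of these counts moved by 1 or 2 genes with the scaling or the filter. Of 17 accessory and isoprenoid genes, 2 were lower and 4 higher in siERRG2, and 4 were lower and 2 higher in siERRG3. The 2 lower in siERRG2 became 1 with total counts, DESeq2 size factors or FPKM. FNTB, a subunit of the farnesyltransferase, had 242, 185 and 169 counts (siCont, siERRG2, siERRG3), below siCont in both. RCE1, a protease that trims prenylated proteins, had 370, 517 and 492, above siCont in both.

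Of 10 genes of SREBP processing and sterol sensing, 2 were lower in siERRG2 and 4 in siERRG3, and 0 were higher in either. With total counts or DESeq2 size factors, 1 was higher in siERRG2. 0 of them were past the threshold in the same direction in both libraries with both intervals excluding 1. Of 12 other SREBP-responsive genes, 1 was lower and 3 higher in siERRG2, and 3 were lower and 1 higher in siERRG3. ME1, the malic enzyme that yields NADPH for lipid synthesis, had 84 counts in siCont, compared with 156 in siERRG2 and 145 in siERRG3, with ratios of 1.84 (1.40 to 2.42) and 1.70 (1.29 to 2.25). Of 12 genes of sterol export, storage and uptake, 2 were lower and 1 higher in siERRG2, and 5 were lower and 1 higher in siERRG3. The number lower in siERRG2 ranged from 1 to 4 over the scalings and filters, and 4 of the 5 lower in siERRG3 had an interval that excluded 1. LRP8, a lipoprotein receptor, had 2147, 1462 and 1376 counts and was below siCont in both, at 0.673 (0.629 to 0.720) and 0.630 (0.589 to 0.675).

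Of 19 other genes of fatty acid synthesis and elongation, 3 were lower and 0 higher in siERRG2, and 7 were lower and 3 higher in siERRG3. The interval excluded 1 for 1 of the 3 lower in siERRG2 and for 6 of the 7 lower in siERRG3, and the 0 higher in siERRG2 became 1 under some alternatives. FADS3, a relative of FADS1 and FADS2 on the same chromosome, had 91, 47 and 44 counts (siCont, siERRG2, siERRG3), with ratios of 0.511 (0.351 to 0.734) and 0.475 (0.324 to 0.689). HSD17B12, the ketoacyl reductase of the elongation cycle, and ELOVL5, an elongase of polyunsaturated chains, were chosen after their values were seen. HSD17B12 had 2400, 2889 and 1518 counts and ELOVL5 had 3890, 4405 and 2649, both highest in siERRG2 and lowest in siERRG3.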

How the data were processed

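RNA of 3 H128 libraries, 1 per condition, was sequenced by the authors, who aligned the reads to GRCh37/hg19 with BWA and Bowtie 2 according to the methods. The submitters' processing notes also name GRCh38, TopHat2, HTSeq and DESeq2. The authors deposited estimated counts (expected counts) per gene, which were not normalized and for 17 of the 31 members were not whole numbers, so that reads may have been divided between genes. They were rounded here. The deposited expression values have no named unit and behave as FPKM: for genes above 500 counts, the median count per unit relative to siCont was 1.002 (siERRG2) and 1.009 (siERRG3), beside 1.002 and 1.008 for the library totals. The authors' deposited log2 ratios to siCont, Poisson p-values and adjusted values were not used.

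Genes reaching 10 counts in any library were kept, and scaled by TMM in edgeR 4.0.16 (R 4.3.3), with factors of 0.994, 1.003 and 1.003 and a prior count of 2. Total counts were 19861937, 19900580 and 20016780. Intervals of 95% were computed with SciPy 1.17.1. With 1 library per condition no model could be fitted. Alternatives were total-count scaling, DESeq2 1.42.0 size factors, FPKM with a pseudocount of 0.1, the absence of a filter, a minimum mean of 50 counts, a prior count of 0.5, and thresholds of 1.5-fold and 2-fold. Scaling, intervals and motif search were tested on simulated data. Coordinates are those of GRCh38. Promoters and overlaps are from RefSeq (GRCh38.p14), where all 31 members were matched by gene ID and 27 had a promoter.

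Named were all members, ESRRG, and genes of other lists past 1.2-fold in the same direction against siCont in both ESRRG siRNA libraries with intervals that exclude 1. Protein-coding neighbours that passed the count filter and overlap a member in RefSeq were named too. A gene that this rule names is not reported here. The background of genes of like depth, the sterol element core, the promoters of genes that passed the filter and the count without overlapping members were added after seeing the data. The members and lists were chosen with earlier results of these data known. Separate cultures are not stated.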

Additional observations from a re-analysis of the deposited data

Results flagged for a closer look

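INSIG2 stood out because it was past 1.2-fold in opposite directions in the ESRRG siRNA libraries, above siCont in siERRG2 and below it in siERRG3. Its log2 fold change of siERRG3 against siERRG2 was -0.64, from 403 and 260 counts, with an interval of the ratio of 0.547 to 0.752 that covers counting error only. The difference was not tested against replicates, since there was 1 library per siRNA.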

How the results depend on the processing

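The numbers of members past 1.2-fold, their medians and the fold changes of ESRRG kept their direction, and the numbers stayed within 1.5 times the reported ones, under total-count scaling, DESeq2 size factors, FPKM, a prior count of 0.5, no filter and a mean of at least 50 counts. With a 1.5-fold threshold, 0 members were lower and 0 higher in siERRG2, 1 lower and 0 higher in siERRG3, and 4 lower and 2 higher in siERRG3 against siERRG2. At 2-fold, all 6 numbers were 0. Without the 6 members that overlap another protein-coding gene that passed the count filter, which was chosen after seeing the data, 2 members were higher in siERRG3 in place of 5. Overlap was judged on RefSeq spans, and some deposited spans are wider. STARD4 is deposited at chr5:111223583-111512597, against 111496033-111512535 in RefSeq. INSIG2 is deposited at chr2:118046694-118173352, against 118088471-118110997. Overlaps on the deposited spans were not tested. Of the 93 fold changes of single members, 2 changed sign, and 0 of those past 1.2-fold did. DHCR7 in siERRG3 against siCont went from -0.01 to 0.00 with total counts or a mean of at least 50 counts, and ELOVL6 in siERRG3 against siERRG2 from -0.17 to 0.04 on FPKM, where the median of the fatty acid genes also went from -0.05 to 0.04. In all, 2 fold changes, both of ELOVL6, moved beyond their counting interval on FPKM, and INSIG1 in siERRG3 against siERRG2 passed the threshold at -0.26 with total counts or no filter and at -0.27 with DESeq2 size factors. No paired analysis was possible because there was 1 library per condition. Counting error was small for most members, while the variation between cultures is not known from these libraries. Of the counts for the other gene lists, 66 values under the alternatives, thresholds included, were more than 1.5 times from the reported ones and 174 were not.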
